A study of Mus musculus with 2 samples.

Results

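Cluster 0 was the largest group of cells that the authors separated in the mandibular prominence of the mouse embryo at embryonic day 13.5. It was taken as every cell that their deposited metadata assign to E13.5 cluster 0, which gave 609 of the 6318 cells of that library and of the 13417 cells of both libraries. The authors' lineage name for it is Mesenchyme. It held 9.64% of the E13.5 cells (exact 95% interval 8.92 to 10.4%), and the next largest mesenchymal cluster, cluster 2, had 481 cells. Its cells were set against the 3224 cells of the other 9 E13.5 mesenchymal clusters of the rule, which are clusters 2, 3, 4, 5, 6, 10, 11, 12 and 14. All of these are named Mesenchyme by the authors except cluster 5, named Osteogenic Progenitors.

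The study profiled single cells of the lower jaw primordium of wild-type CD1 embryos at E11.5 and E13.5 by droplet RNA sequencing, with 1 library per stage. No embryo carried an engineered allele or received a treatment. The tissue (12.5 mg per stage) was dissociated at 4 °C within 10 minutes by a protease of Bacillus licheniformis that works in the cold, at 3 mg/ml for E11.5 and 5 mg/ml for E13.5, and 9600 cells were loaded to capture 6000. The number of embryos behind a library is not given in the sources used here, and cells with Xist and cells with Y-linked transcripts both occurred in cluster 0, so the library pools embryos of both sexes. With 1 library there is no replicate, so values are described and not tested: an interval covers counting error only, and a gene is called higher or lower when its ratio is at least 1.5-fold with a 95% interval that excludes 1.

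The mesenchyme of the mandibular prominence comes mostly from cranial neural crest and gives rise to the lower jaw bone, Meckel's cartilage, the dental mesenchyme, the connective tissue of the tongue and the dermis. Signals from the epithelium, among them BMP, FGF, WNT and hedgehog ligands and endothelin, set which transcription factors a mesenchymal cell uses along the axes of the jaw. Msx1, Alx1 and Hand2 mark distal and midline mesenchyme, Dlx1, Dlx2 and Barx1 more proximal mesenchyme, and Foxf and Osr genes parts of the oral and lingual mesenchyme.

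The cells of cluster 0 had a median of 7203 UMIs (unique molecular identifiers, the counted transcripts), against 6419 to 10942.5 in the other 9 clusters. A median of 2519 genes was detected per cell, and mitochondrial transcripts took a median of 2.98%. Summed over its cells, cluster 0 held 4470957 UMIs and the other 9 clusters 29691459, and levels are given as CPM, the gene's share of such a sum scaled to a total of 1000000. The E11.5 library had 7099 cells. Of the cell barcodes, 71 occurred in both libraries, 5 of them in cluster 0.

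The label was checked against markers. Of 10 general mesenchyme markers, Prrx1 was called higher in cluster 0 (659 against 250 CPM), Twist2 lower (83.7 against 215 CPM), and the other 8 neither. Their summed level was 4824 CPM, within the range of the other clusters (2269 to 8851 CPM, median 3599). The collagen gene Col3a1, with the second largest ratio, stood at 1170 against 862 CPM, and Twist1, with the second smallest, at 66.0 against 66.3 CPM. Marker sums of other cell types lay inside the range of the other mesenchyme, and of the 34 measured markers of epithelium, skeletal muscle, endothelium and blood none was called higher and 1, Krt18, lower. Of 5 neuron markers Snap25 was higher (41.2 against 6.03 CPM) and 2 were lower, of 8 pericyte and smooth muscle markers Tagln was higher and 3 were lower, and of 6 glia markers S100b was lower. The epithelial sum was 170 CPM (others 123 to 279), the skeletal muscle sum 104 CPM (89.4 to 130), the endothelial sum 25.9 CPM (19.1 to 35.4) and the erythroid sum 2370 CPM (1773 to 2483), against 883477 CPM in the authors' blood cluster 13. In 14.3% of its cells 3 or more epithelial marker UMIs were counted, a share that ran from 12.7 to 20.4% in the other clusters.

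Over the 13414 genes with at least 20 UMIs, 941 were called higher in cluster 0 (7.02%) and 1612 lower (12%); the median log2 ratio was −0.04. The genes furthest above the rest of the mesenchyme encode transcription factors (Ebf1, Bcl11b, Msx1, Osr1), secreted signals (Pthlh, Gdf10, Cxcl12), the matrix proteoglycan Vcan and the adhesion protein Alcam. Those furthest below are Foxf1, Foxf2 and Barx1 of the transcription factors, the bone and tendon matrix genes Ibsp and Thbs4, and genes of the cell cycle. Because the clusters were made from these same genes, the values describe the cluster and do not test it. Genes beyond the ranked genes of each comparison and beyond the 2 highest and 2 lowest members of each gene list were chosen after their values were seen. Cluster 0 ranked first of the 10 clusters for all of the 14 genes with the highest ratios, and last for 4 of the 14 with the lowest.

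**Figure D1:**
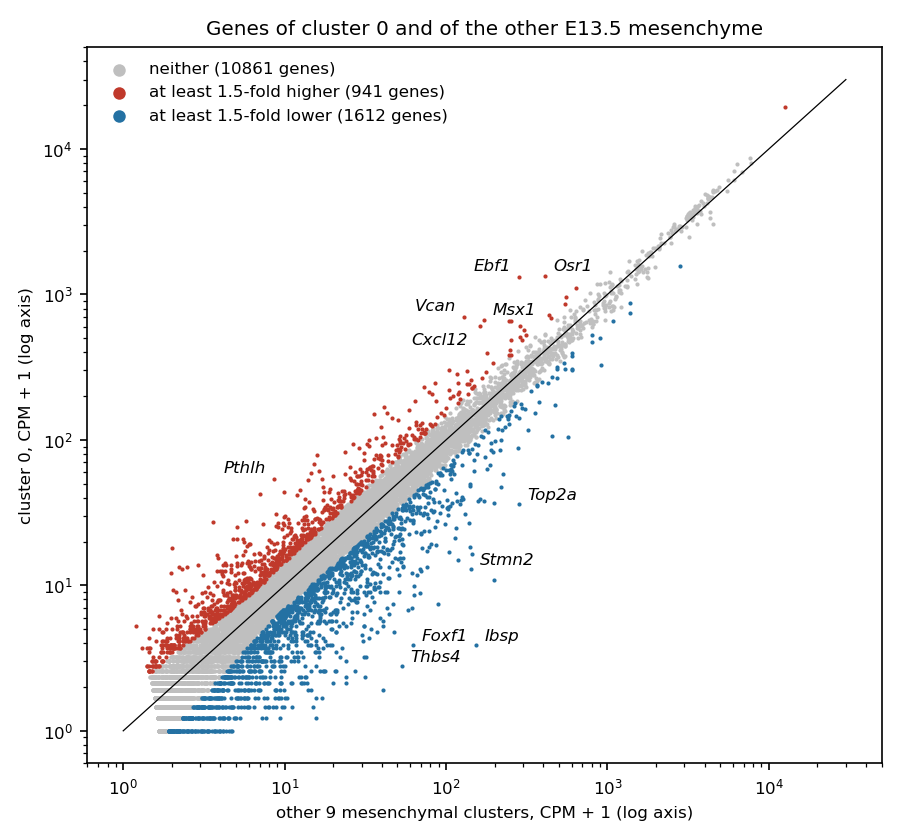
Level of each of 13414 genes in E13.5 cluster 0 (vertical, CPM + 1, log axis) and in the summed other 9 mesenchymal clusters (horizontal, CPM + 1, log axis); each point is 1 gene and the line marks equal levels. Red points are the 941 genes called higher and blue points the 1612 called lower, with Ebf1 and Osr1 at the top in cluster 0 among the labelled genes and Ibsp and Foxf1 among the lowest against the other clusters.

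Among the transcription factors, Ebf1, a helix-loop-helix factor known from B cells and from stromal progenitors, stood at 1312 CPM in cluster 0 and at 112, 242 and 726 CPM in the lowest, median and highest of the other 9 clusters. Its ratio to their sum was 4.64 (95% interval 4.48 to 4.79). Cluster 14 came nearest of the 9, and none of them reached the level of cluster 0. The gene lies on chromosome 11 from 44617317 to 45008091 (GRCm38, plus strand). Osr1, a zinc finger factor of embryonic connective tissue, was at 1345 CPM, against 58.8 (cluster 5), 495 and 721 CPM (cluster 12), a ratio of 3.27 (3.17 to 3.38). Osr1 was thus present across the other clusters at intermediate levels, apart from the osteogenic cluster 5.

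Msx1, a homeobox factor downstream of BMP signals in jaw and tooth mesenchyme, was at 671 CPM, against 13.5, 43.9 and 568 CPM, with a ratio of 3.91 (3.73 to 4.09). Its highest other value came from the osteogenic cluster 5, close to that of cluster 0, whereas 6 clusters stayed at or below 102 CPM. Bcl11b, a zinc finger factor needed for T cell and tooth development, was at 168 CPM, against 13.6, 29.6 and 89.3 CPM, with a ratio of 4.13 (3.77 to 4.53). Outside the mesenchyme, the surface ectoderm cluster 7 held 158 CPM of Bcl11b. Pax3, a paired-box factor of neural crest, ranked below the 14 and was chosen after its values were seen. It was at 246 against 84.9 CPM, a ratio of 2.90, below that of the zinc finger gene Zfhx4 (3.11).

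Of the secreted signals, Pthlh, which encodes parathyroid hormone-related protein, had the largest ratio of all. It was at 53.0 CPM in cluster 0 and at 1.71, 3.73 and 20.6 CPM in the lowest, median and highest of the others, a ratio of 6.93 (5.76 to 8.35). Gdf10, a member of the BMP family, was at 150 CPM, against 2.54, 31.0 and 135 CPM, a ratio of 4.29 (3.89 to 4.74). Pthlh was 2.57-fold above its next cluster, while Gdf10 was 1.10-fold above cluster 14. Cxcl12, the chemokine that guides cells with the receptor Cxcr4, was at 601 CPM, against 22.9, 167 and 446 CPM, a ratio of 3.71 (3.54 to 3.89). Otor, a small secreted protein first found in the inner ear, was at 77.2 CPM, against 0.629, 14 and 45.5 CPM, a ratio of 5.17 (4.48 to 5.97). All 4 were highest in cluster 0.

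Among genes of matrix, adhesion and metabolism, Vcan, a large chondroitin sulphate proteoglycan, was at 700 CPM, against 49.4, 101 and 295 CPM, a ratio of 5.42 (5.17 to 5.69). It stood 2.37-fold above cluster 10, the next highest. The small cluster 21, which the authors also name Mesenchyme but which lies outside the clusters compared, had 1163 CPM of Vcan and 1789 CPM of Ebf1. That cluster held 72 cells with a median of 1833 UMIs and a median mitochondrial share of 14.5%. Alcam, an immunoglobulin-type adhesion protein, was at 92.4 CPM, against 2.83, 17.8 and 80.3 CPM, a ratio of 3.62 (3.21 to 4.09). Hpgd, the enzyme that inactivates prostaglandins, was at 153 CPM, against 1.89, 10.8 and 137 CPM, with a ratio of 3.64 (3.31 to 4.00). Other clusters came close to cluster 0 in both: cluster 14 for Alcam, and clusters 2 and 10 (131 CPM) for Hpgd. The remaining 3 of the 14 were Bdh2, a dehydrogenase (82.1 against 22.7 CPM), Fam69c, of a family of kinase-like proteins of the endoplasmic reticulum (58.2 against 13.5 CPM), and Tagln, an actin-binding protein of smooth muscle (52.6 against 16 CPM). Cluster 21 was also above cluster 0 for Alcam (112 CPM) and Fam69c (119 CPM). Apart from these, Vcan and Ebf1, it was below cluster 0 for the 14. The surface ectoderm cluster 16 had 279 CPM of Alcam.

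Ranked by the ratio to the highest of the other 9 clusters, Pthlh and Vcan again led. Chst2, a sulphotransferase acting on glycans, followed at 121 CPM against at most 53.9 CPM in the other 9 clusters, a ratio of 2.25. Bdh2 stood 2.06-fold, the glutathione transferase gene Mgst3 1.91-fold, Bcl11b 1.88-fold, Osr1 1.87-fold, Ebf1 1.81-fold, Tagln 1.80-fold and the lipid hydrolase gene Aig1 1.79-fold above their next cluster. In all, 19 genes with at least 50 CPM were at least 1.5-fold above each of the other 9 clusters, a count that ran from 2 to 69 when each of the other clusters was taken in the same way. Cluster 21, outside this ranking, was above cluster 0 for Vcan, Ebf1, Chst2 (186 CPM), Mgst3 (216 CPM) and Aig1 (209 CPM), and below it for Pthlh, Bdh2, Bcl11b, Osr1 and Tagln. Cluster 0 was the highest of the 10 for 1089 genes (8.12%) and the lowest for 1205 (8.98%).

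**Figure D2:**
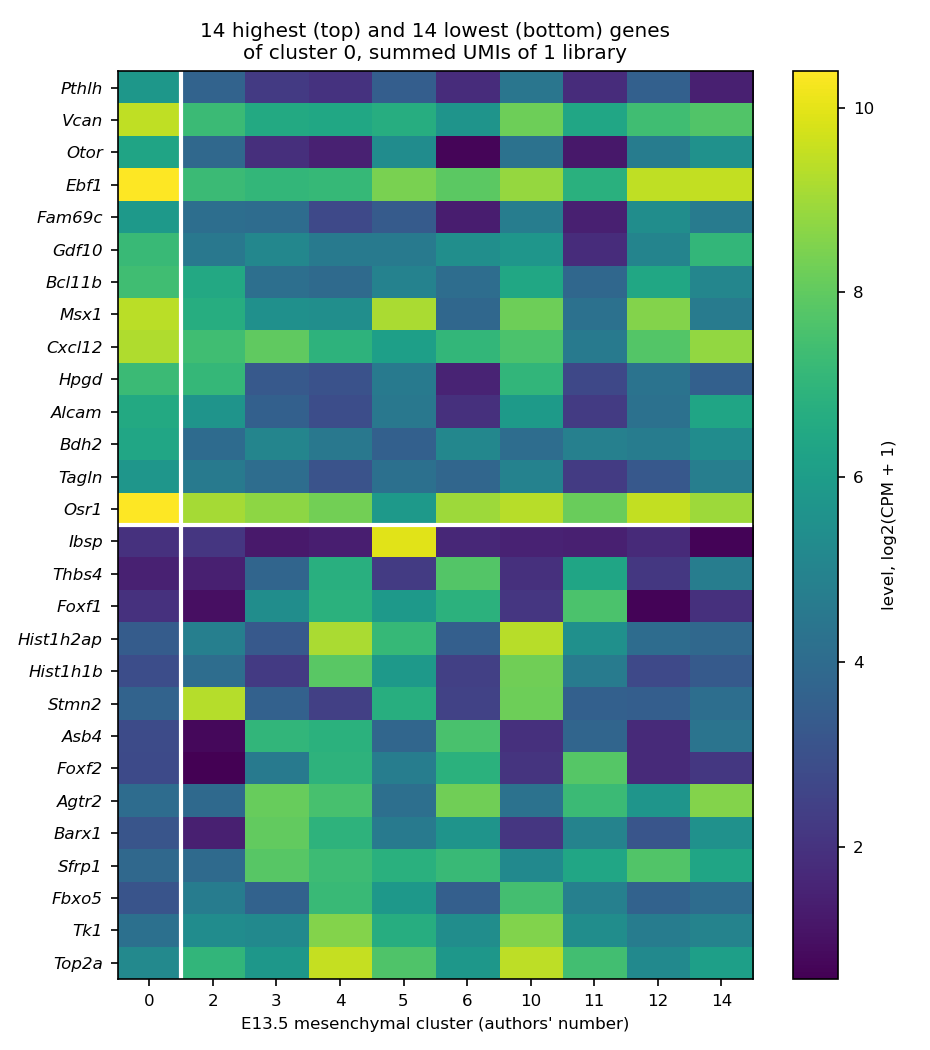
Levels of the 14 genes with the highest and the 14 with the lowest ratio in cluster 0, in each of the 10 E13.5 mesenchymal clusters (columns, authors' numbers); colour gives log2(CPM + 1) of the UMIs summed over a cluster's cells. The upper block is brightest in the first column, where all 14 genes rank first, while in the lower block single clusters such as 5 for Ibsp and 2 for Stmn2 carry the high values.

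At the low end, Foxf1, a forkhead factor that responds to hedgehog signals, was at 2.91 CPM in cluster 0 and at 0.573, 40.7 and 192 CPM in the lowest, median and highest of the others, 21.2-fold lower than their sum (12.4 to 39.9). Its relative Foxf2 was at 5.82 CPM, against 0.481, 22.6 and 220 CPM, 9.87-fold lower (6.72 to 15.2). Clusters 2 and 12 were as low or lower in both genes, so the low level was shared by the clusters most like cluster 0. Barx1, a homeobox factor of proximal jaw, stomach and molar mesenchyme, was at 7.83 CPM, against 1.68, 30.1 and 260 CPM, 8.69-fold lower (6.23 to 12.5). Sfrp1, a secreted WNT antagonist, was at 13.9 CPM and below every other cluster (14.4 to 228 CPM), 8.46-fold lower (6.58 to 11.1). Agtr2, a receptor for angiotensin, was at 15.4 CPM, against 14.2, 153 and 379 CPM, 9.28-fold lower (7.31 to 11.9).

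For Ibsp and Stmn2 the gap rested on few clusters. Ibsp, the bone sialoprotein gene, was at 2.91 CPM against 152 CPM in the sum, but 997 CPM in cluster 5 alone, and the median of the other clusters was 1.85 CPM. Set against that median its ratio was 1.57, and with cluster 5 left out it was 1.50, so its order turned. Stmn2, a tubulin-binding protein of neurons, was at 11.9 CPM against 142 CPM, with 633 CPM in cluster 2, and its ratio to the median cluster was 1.06. Other low genes were higher in several clusters. Thbs4, a tendon matrix gene, was at 1.79 CPM, against 1.68, 12.8 and 219 CPM, and Asb4, of an E3 ubiquitin ligase, at 6.04 CPM, against 0.722, 13.1 and 190 CPM. The last 5 of the 14, Hist1h2ap, Hist1h1b, Fbxo5, Tk1 and Top2a, belong to DNA replication and mitosis and are taken up with the cell cycle.

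Cluster 0 was made up mainly of cells outside S and G2M phase. By the authors' phase calls 523 cells were in G1, 42 in S and 44 in G2M. The share in S or G2M was 14.1% (11.5 to 17.1%). In the other clusters it ran from 14% (cluster 12) to 100% (clusters 4 and 10, which held no G1 cell), with 48.7% over all of them. Phase calls depend on depth, and the G1 cells of cluster 0 had a median of 7090 UMIs against 8111.5 in S and 7774.5 in G2M. Of 20 S phase genes none was called higher and 19 lower (median log2 ratio −1.40). All 23 genes of G2 and mitosis were lower (median −1.64). Top2a, the topoisomerase of replicating chromosomes, was at 35.1 CPM, against 36.7, 132 and 740 CPM, and the mitotic kinase gene Aurkb at 12.3 against 75.4 CPM. The ratios nearest 1 were those of Cenpa (146 against 269 CPM) and Ccnb2 (66.7 against 124 CPM) of mitosis, and Mcm4 (52.1 against 64.7 CPM) and Mcm2 (45.9 against 72.3 CPM) of replication.

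With G1 cells alone in both groups (523 cells against 1655), 671 genes were called higher (5.43%) and 1100 lower (8.90%); the median log2 ratio was −0.04. All 14 genes with the highest ratios were again called higher, with ratios from 2.98 (Osr1) to 7.46 (Pthlh). They were ranked over all cells, the G1 cells included, so this is no separate test. Of the 14 lowest, 9 were again called lower. The 5 that were not are the replication and mitosis genes: Hist1h2ap came to a ratio of 1.04 (0.675 to 1.55) and Hist1h1b to 1.06 (0.587 to 1.82), above 1 in place of below it, and Top2a to 0.791 (0.559 to 1.10). In G1 cells 5 of 20 S phase genes and 4 of 21 genes of G2 and mitosis were called lower. Among 11 inhibitors of the cycle, 4 were called lower over all cells and 2 in G1 cells, and none higher in either. Cdkn1a was at 1.57 against 16.4 CPM over all cells and at 1.86 against 21.5 CPM in G1 cells. Cdkn2c was at 5.37 against 43.6 CPM over all cells and at 3.72 against 9.66 CPM in G1 cells. Cdkn1c, an imprinted inhibitor of the cycle, was at 3060 against 4539 CPM over all cells and not called.

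**Figure D3:**
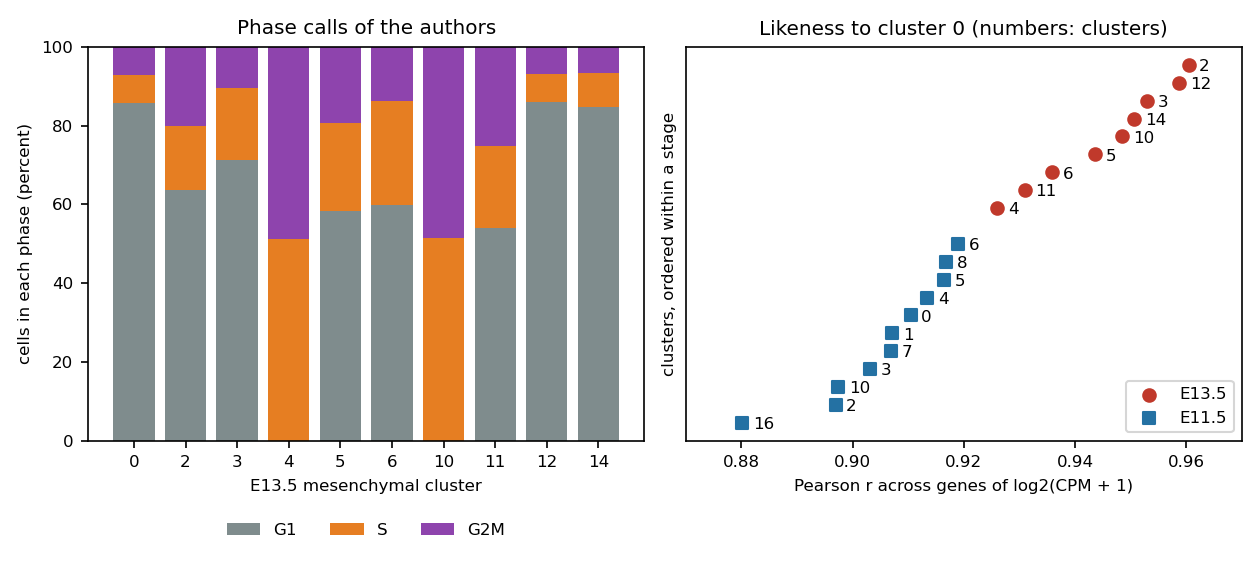
Left, percent of cells in each phase by the authors' calls in the 10 E13.5 mesenchymal clusters; right, Pearson r of log2(CPM + 1) between cluster 0 and each other mesenchymal cluster of E13.5 (circles, 13414 genes) and E11.5 (squares, 13308 genes), labelled with the cluster number. Clusters 0, 12 and 14 are the richest in G1 cells, and clusters 2 (0.960) and 12 (0.959) have the highest r.

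The regulators of jaw position divided within lists, as the plot of list members shows. Of 14 distal jaw and midline regulators 4 were called higher and 6 lower (median log2 ratio −0.67). Among the higher ones were Msx1, Msx2 (44.5 against 11.5 CPM, ratio 3.88, 3.24 to 4.63) and Alx1 (191 against 121 CPM). In G1 cells Alx1 was not called (186 against 132 CPM, ratio 1.41). The lowest ratios were those of Tfap2b, at 1.57 against 26.2 CPM, and Dlx3, at 0.671 against 3.23 CPM. Hand2, the factor of the distal arch, stood at 136 CPM in the middle of the others (15.5, 131 and 183 CPM) and was not called. The median of this list turned positive with cluster 5 left out (0.49), against the median of the clusters (1.08), with at least 100 UMIs required (0.16) and in cells with an Xist UMI (0.21).

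Of 16 proximal and pan-arch regulators 4 were called higher and 11 lower (median log2 −1.12). The proximal homeobox genes Dlx1 (2 UMIs, 0.447 against 7.48 CPM, ratio 0.0598, 0.00720 to 0.219) and Dlx2 (3 UMIs, 0.671 against 9.06 CPM, ratio 0.0741, 0.0152 to 0.219) were below every other cluster. Meis1 (25.3 against 13 CPM) and Emx2 (65.5 against 34.2 CPM) had the largest ratios. Of 14 oral and dental regulators 2 were higher and 9 lower (median −1.35). Msx1 was joined by the LIM homeobox gene Lhx8, at 165 CPM against 31.9, 77.2 and 434 CPM, a ratio of 1.66 (1.53 to 1.80) and second to cluster 12. Pax9, a paired-box factor of tooth and palate chosen after its values were seen, was at 1.57 against 16.7 CPM.

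Of 12 measured tongue and oropharyngeal connective tissue regulators 10 were lower and only Osr1 higher; the median log2 ratio was −2.90, the lowest of the 43 lists. The homeobox gene Meox2 was at 3.8 CPM against 46.9 CPM, and the short stature homeobox gene Shox2 was level at 46.7 against 47.0 CPM. The low median was not particular to cluster 0: against cluster 2 alone, 3 of 8 members were higher and 3 lower (median −0.24). Against cluster 12 alone, 1 of 8 was higher and 4 lower (median −0.94). Of 13 dermal and fibroblast regulators 3 were higher and 6 lower (median −0.43). The higher ones were Ebf1 and the large zinc finger genes Zfhx4 (141 against 45.2 CPM, ratio 3.11, 2.83 to 3.42) and Zfhx3 (136 against 49.1 CPM). Prdm1 (2 UMIs, 0.447 against 2.05 CPM) and Tfap2c (1.12 against 11.8 CPM) had the smallest ratios.

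**Figure D4:**
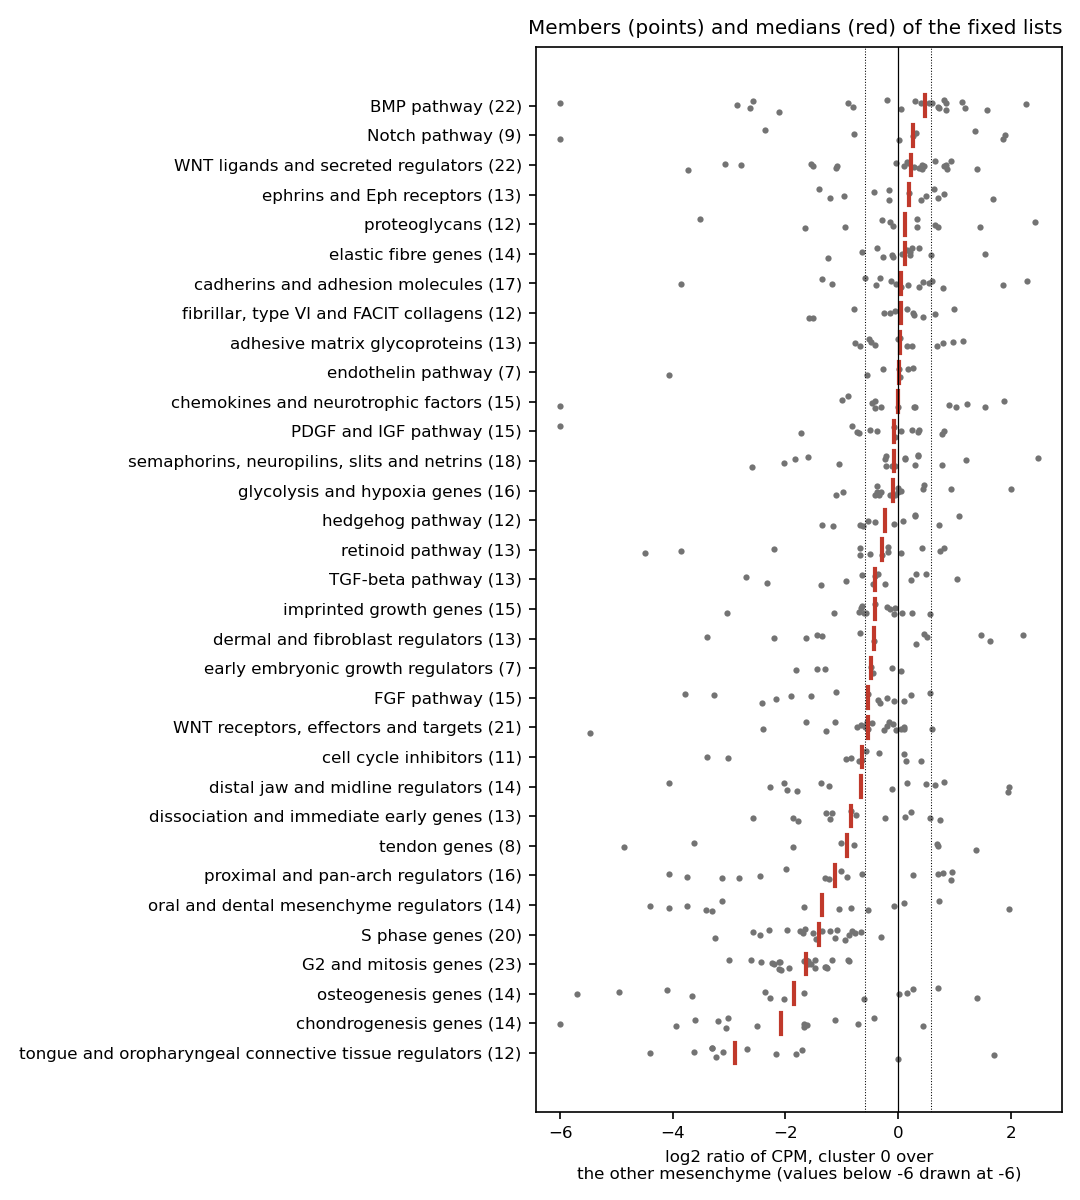
Log2 ratio of CPM in cluster 0 over the other mesenchyme for each measured member of the lists (grey points; number of members in brackets), with each list's median in red; dotted lines mark 1.5-fold and values below −6 are drawn at −6. Medians run from −2.90 for the tongue and oropharyngeal regulators to 0.47 for the BMP pathway, and most lists hold members on both sides of 0.

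Skeletal gene lists had low medians against the sum of the other clusters. Of 14 chondrogenesis genes none was higher and 11 were lower (median log2 −2.08). Sox9, the master factor of cartilage, was at 8.05 against 24.7 CPM, Matn1 had no UMI in cluster 0 (2.36 CPM in the others) and Acan, the cartilage proteoglycan, had 1 UMI (3.44 CPM in the others). The largest ratios were those of Col11a1 (58.4 against 43.0 CPM) and Hapln1 (6.93 against 9.30 CPM). The chondrogenesis list summed to 145 CPM, against 86.8, 128 and 1113 CPM in the lowest, median and highest of the others. The highest was cluster 5. Against cluster 2 alone, 4 of 9 of its genes were higher and 3 lower (median 0.46). Against cluster 12 alone, 2 of 7 were higher and 2 lower (median −0.11). Of 14 osteogenesis genes 7 were lower and 1 higher (median −1.85). The sialoprotein gene Ibsp and Smpd3 (2 UMIs, 0.447 against 13.9 CPM) had the smallest ratios. Alpl, alkaline phosphatase of early osteoblasts, was at 70.5 CPM against 1.71, 5.00 and 223 CPM, second to cluster 5, and not called in G1 cells (ratio 1.35), while Bglap had 6 UMIs and was not called. Without cluster 5 the osteogenesis median was 0.20, and against the median of the clusters 0.41, so its sign turned. Against cluster 2 alone, 3 of 8 osteogenesis genes were higher and 1 lower, and against cluster 12 alone 2 of 7 were higher and none lower. Of 8 tendon genes 5 were lower and 2 higher (median −0.90, and 0.25 against the median of the clusters). Scx, the tendon factor, had 3 UMIs (0.671 against 8.29 CPM), and Tnmd, tenomodulin, was at 18.8 against 7.21 CPM.

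Matrix genes stood on both sides of the other mesenchyme, with list medians near 0. Over all genes 7.02% were called higher and 12% lower, and the counts of the elastic fibre list were near those shares. Of 12 collagens 2 were higher (Col12a1, 76.5 against 38.6 CPM, and Col5a2, 234 against 149 CPM) and 3 lower, among them Col6a3 (47.0 against 140 CPM, below all other clusters) and Col14a1 (3.35 against 9.53 CPM), with a median log2 ratio of 0.04. Of 14 elastic fibre genes 1 was higher, Fbln2, fibulin 2, at 302 CPM against 48.3, 91.9 and 267 CPM, and 2 lower, Mfap5 and Ltbp1 (median 0.12). Of 12 proteoglycans 3 were higher (Vcan, Ogn at 160 against 57.9 CPM, and Bgn at 384 against 245 CPM) and 3 lower (median 0.13). The lower ones were Dcn, decorin, at 161 against 310 CPM, the syndecan gene Sdc2 at 22.8 against 72.0 CPM, and Prelp with 1 UMI. Of 13 adhesive glycoproteins 4 were higher and 2 lower (median 0.04), and Postn, periostin, at 397 CPM against 38.5, 195 and 289 CPM, was highest in cluster 0. Nid2 was at 32.4 against 16.5 CPM, Sparcl1 at 21.9 against 34.9 CPM and Nid1 at 18.6 against 31.4 CPM. In G1 cells the collagens held 1 higher and 3 lower, the elastic fibre genes 1 and 1, the proteoglycans 2 and 3, and the adhesive glycoproteins 3 and 2.

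The BMP pathway had the highest median log2 ratio of the lists, 0.47, with 9 of 22 genes higher and 6 lower. The transcriptional inhibitor Id4, of a family that BMP signals induce, was at 42.9 CPM against 0.629, 10.9 and 28.9 CPM, a ratio of 4.85 (4.00 to 5.86). Id2 was at 297 CPM against 27.7, 162 and 246 CPM, and Id3 at 489 against 295 CPM. Both Id2 and Id4 were highest in cluster 0, whereas Id3 was higher in cluster 5 (609 CPM). Among ligands, Bmp3 was at 25.9 against 8.72 CPM and Bmp5 at 15.7 against 6.90 CPM, while Bmp2 was at 2.91 CPM, below all other clusters (4.72 to 40.1 CPM). The intracellular inhibitors Smad6 and Smad7, the pseudoreceptor gene Bambi (117 against 66.3 CPM) and the antagonist gene Nog (6.26 against 3.47 CPM) were also called higher. The antagonist Bmper had 3 UMIs (0.671 against 4.88 CPM) and the receptor gene Bmpr1b none (1.58 CPM in the others). Beyond the ends of the list, these members were chosen after their values were seen. In G1 cells the list held 9 higher and 7 lower, with a median of 0.49, and Smad7 was not called (ratio 1.49).

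In the FGF pathway none of 15 genes was higher and 6 were lower (median log2 −0.53). The 6 are genes that FGF signals induce: the feedback inhibitors Spry4 (3 UMIs, 0.671 against 9.30 CPM, ratio 0.0722, 0.0148 to 0.213), Spry2 and Dusp6 and the ETS factors Etv4 (3.35 against 32.3 CPM), Etv5 and Etv1. Spry2, Spry4 and Etv5 were lowest of the 10 clusters in cluster 0. The receptor gene Fgfr1 was at 114 against 142 CPM and not called, and the ligand genes Fgf9 (2.68 against 1.82 CPM) and Fgf7 (13.2 against 11.2 CPM) had the largest ratios. In G1 cells 7 members were lower and none higher.

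Of 22 WNT ligands and secreted regulators 6 were higher and 6 lower (median log2 0.23). Wnt5a, a ligand of growing facial mesenchyme, was at 212 CPM against 56.4, 120 and 183 CPM, a ratio of 1.77 (1.65 to 1.90) and the highest of the 10. The secreted antagonists divided, with Sfrp4 at 64.4 against 24.4 CPM and Sfrp2 at 485 against 253 CPM (not called in G1 cells, ratio 1.36), and with Sfrp1 and Frzb (2.24 against 29.8 CPM) far lower. The R-spondin gene Rspo1, which enhances WNT signals, was at 6.04 CPM, below all other clusters (10.9 to 143 CPM). Of 21 WNT receptors, effectors and targets 1 was higher and 8 lower (median −0.53). Sp5, a direct WNT target, was at 0.895 CPM (4 UMIs) against 1.15, 27.3 and 162 CPM, 44.1-fold lower than the sum, and Axin2, a feedback target, at 13.2 against 21.8 CPM. Tcf7l2 was the higher one (128 against 83.9 CPM), and Tcf7 was at 1.12 against 5.89 CPM.

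In the hedgehog pathway 2 of 12 genes were higher and 4 lower (median log2 −0.24). Both higher ones are coreceptors, Gas1 at 605 CPM against 37.3, 330 and 743 CPM and Cdon at 33.8 against 20.5 CPM. Among the lower ones are the receptor and feedback genes Ptch1 (18.1 against 27.9 CPM) and Hhip (2.46 against 5.49 CPM) and the coreceptor Boc. In G1 cells Gas1 was called higher and Boc lower, while Cdon (34 against 26 CPM, ratio 1.31), Ptch1 and Hhip were not called. In the Notch pathway 3 of 9 genes were higher and 3 lower (median 0.27). Jag1, a Notch ligand, was at 40.7 CPM against 5.16, 9.19 and 30.5 CPM, a ratio of 3.73 (3.09 to 4.49), and the glycosyltransferase gene Lfng, which modifies Notch, at 17.7 against 4.85 CPM. Of the target genes Hey2 was at 24.4 against 9.43 CPM, Hey1 at 3.8 against 19.7 CPM, and Heyl had no UMI (2.63 CPM in the others).

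Other signalling lists held members in both directions, where over all genes 7.02% were called higher and 12% lower. Of 13 TGF-beta genes 1 was higher, Tgfb2 (131 against 63.7 CPM), and 5 lower, Tgfb1 at 2.91 CPM below all other clusters (2.97 to 54.2 CPM) and Tgfbi at 15.9 against 103 CPM. Of 15 PDGF and IGF genes the binding proteins Igfbp4 (1105 CPM against 468, 626 and 863 CPM) and Igfbp2 (242 against 138 CPM) were higher, while Igfbp5 was at 38.2 against 126 CPM and Igfbp6 had no UMI (3.17 CPM in the others). Of 13 retinoid genes 2 were higher and 5 lower: the receptor gene Rarb was at 18.6 against 10.5 CPM and Crabp2 at 414 against 248 CPM, while Aldh1a3, which makes retinoic acid, was at 1.34 against 30.4 CPM and its uptake receptor Stra6 had 1 UMI. Of 7 endothelin genes only the receptor gene Ednrb was called, at 1.12 against 18.9 CPM. In G1 cells Tgfb2 (ratio 1.48), Igfbp2 (1.46), Rarb (1.40) and Crabp2 (1.49) were no longer called higher, while Igfbp4 was (1.63). The medians of these 4 lists over all cells were −0.40, −0.08, −0.29 and 0.01.

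Guidance and adhesion genes included some of the sharpest differences. Sema3d, a secreted semaphorin, was at 26.8 CPM against 0.424, 2.83 and 11.1 CPM, a ratio of 5.61 (4.36 to 7.21). It fell below the level of 50 CPM required of the 14 ranked genes. Of 18 genes of its list 3 were higher, with the netrin receptor gene Unc5c (27.1 against 11.8 CPM) and the coreceptor Nrp1 (337 CPM, highest of the 10), and 5 lower, with Nrp2 (10.7 against 65.2 CPM) and Slit2 (17 CPM, below all others). The related coreceptors Nrp1 and Nrp2 thus stood on opposite sides. Of 13 ephrin and Eph genes 4 were higher and 3 lower, the former led by Epha5 (28.4 against 8.86 CPM) and Efna1 (11.9 against 6.77 CPM), the latter by Ephb1 (2.01 against 5.32 CPM) and Epha7 (23.3 against 53.7 CPM). Of 15 chemokines and neurotrophic factors 5 were higher and 2 lower. Ackr3, the scavenger receptor of Cxcl12, was at 27.5 against 9.46 CPM and highest in cluster 0, while Cxcr4 had 5 UMIs. Of 17 cadherins and adhesion genes 4 were higher and 4 lower, with Pcdh8 (17 UMIs, 3.8 against 0.775 CPM) and Alcam at the high end and Cdh4 (0.895 against 12.9 CPM) and Vcam1 (16.6 against 42.3 CPM) at the low end.

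Counted by cells, Ebf1, Osr1 and Msx1 were detected in most of cluster 0, and Pax3 and Bcl11b in fewer. For this, cells were thinned to 2000 UMIs, and 6 cells of cluster 0 below that depth were left out. Ebf1 was then detected in 84.4% of 603 cells (81.3 to 87.2%), against 30.8% in the other 9 clusters, 2.91% in the erythroid cluster 13 and 1.78% in the muscle cluster 1. The median depths of these background clusters before thinning were 18517 and 19640 UMIs. Erythroid markers made up 883477 CPM of cluster 13, so its thinned cells kept few other UMIs and its shares can understate the background. Osr1 was detected in 84.4% against 44.4%, with 1.46 and 3.75% in the background clusters, and Msx1 in 64.5% against 19.5%, with 0.485 and 3.35%. Within the other clusters Msx1 ranged from 2.52% (cluster 11) to 63.5% (cluster 5), so by cells cluster 5 came close to cluster 0. Pax3 was detected in 35.3% against 14.6% and Bcl11b in 27.0% against 7.95%. Zfhx4 was detected in 21.9% against 8.52%, and cluster 14 stood above cluster 0 with 29.3%. Without thinning, Ebf1 was seen in 98.0% of the cells of cluster 0, 55.0% of the other 9 clusters and 12.2% of muscle cells. Osr1 was seen in 94.7, 74.8 and 17.5% of them, and Msx1 in 89.8, 35.2 and 20.2%, with 92.2% in cluster 5.

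Vcan was detected in 72.0% of thinned cells against 20.4%, and Cxcl12 in 56.1% against 21.2%. The signals with lower counts appeared in fewer cells: Gdf10 in 23.2% against 5.79%, Otor in 11.3% against 2.57% and Pthlh in 10.1% (7.83 to 12.8%) against 1.13%, with Pthlh at 0 and 0.197% in the erythroid and muscle cells. Of 206 thinned erythroid cells 0 had a Pthlh UMI, which allows a share of cells with a UMI of up to 1.46% and sets no limit on cells that express the gene. Foxf1 was found in 0.332% of cluster 0 cells against 9.99%, Foxf2 in 0.498% against 9.33% and Barx1 in 1.16% against 10.4%. Erythroid cells gave 0% for Foxf1 and Foxf2 and 0.485% for Barx1, and muscle cells 0.197, 8.68 and 0.394%. Unthinned, Foxf2 was seen in 40.7% of muscle cells and 0.483% of erythroid cells, so muscle gives no background level for it. Hand2 was detected in 25.9% against 21.4%, and Lhx8 in 29.0% against 16.7%.

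Ebf1, Osr1, Msx1 and Pax3, regulators picked after their values were seen, were seen together about as often as their separate shares imply. Ebf1 and Osr1 were both detected in 73.5% of the cells (69.7 to 77.0%), where independence gives 71.3%. Msx1 and Pax3 were both detected in 23.5%, where independence gives 22.8%. The other 4 pairs were seen together in 30.2 to 55.7% of the cells, against 29.8 to 54.5% under independence. These shares are descriptions of cells of 1 library at 1 depth.

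Among the cells of cluster 0 the largest variance over the mean, after thinning, was that of the nuclear RNA Malat1 (16.3), followed by the BMP and WNT antagonist Sostdc1 (4.10), the cycle inhibitor Cdkn1c (3.77), Sfrp2 (3.66), the imprinted RNA Meg3 (3.36) and the growth factor Ptn (3.22). The median over 12112 genes was 0.996, near the value of 1 that counting alone gives. Sostdc1 was detected in 23.9%, Sfrp2 in 36.7% and Ptn in 55.2% of the cells. Calb2 (3.14), Afp (3.00), the neuropeptide gene Tac1 (2.95) and the histone gene H2afz (2.82) completed the first 10, and Afp rested on 1 cell. At 4000 UMIs 8 of the 10 were again in the first 10, and all but Afp had larger values, such as 27.6 for Malat1, 7.47 for Sostdc1 and 6.30 for Cdkn1c. Over 603 cells of 1 library the correlations between the 10 were weak: the highest was that of Sfrp2 with Ptn (r = 0.41) and the lowest that of Meg3 with H2afz (r = −0.24).

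Within the cluster the cells called S or G2M also carried the ranked genes, some of them at lower levels. Osr1 was at 1273 CPM in them against 1358 CPM in G1 cells (ratio 0.937, 0.872 to 1.01), and Pthlh at 58.2 against 52.0 CPM (1.12, 0.778 to 1.57). Ratios with intervals below 1 were those of Gdf10 (0.665, 0.515 to 0.847), Hpgd (0.751), Cxcl12 (0.756), Msx1 (0.834), Ebf1 (0.836) and Vcan (0.902). Fam69c was lower in cycling cells, at 21.3 against 65.1 CPM (0.327, 0.180 to 0.550), and Top2a higher, at 159 against 11.9 CPM (13.3, 9.33 to 19.2). The phase calls rest on cycle genes, so the Top2a value follows from them.

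The ranked genes were called in the same direction in cells of either sex. In cluster 0, 186 cells had an Xist UMI and no Y-linked UMI, 155 a Y-linked and no Xist UMI, 15 both and 253 neither. Set against the other mesenchyme of the same kind (911 and 780 cells), all 14 of the highest genes were called higher and all 14 of the lowest were called lower in each. These genes were ranked over all cells, both sets included, so their shared direction is no separate test. The ratios of the 14 highest ran from 2.85 to 7.83 in cells with Xist and from 2.95 to 11.3 in cells with Y-linked transcripts. Barx1 differed most in size among the lowest, at 23.2-fold lower in cells with Xist and 4.79-fold lower in the others, with intervals of its ratio of 0.0140 to 0.101 and 0.118 to 0.343. Since the sexes are sets of embryos in 1 library, sex and embryo cannot be told apart.

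**Figure D5:**
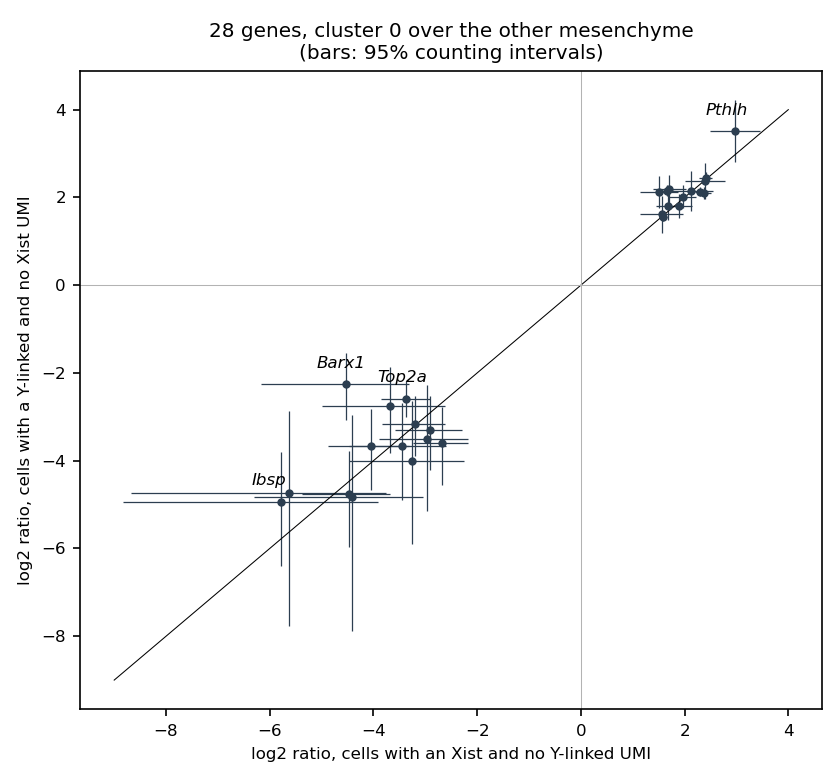
Log2 ratio of cluster 0 over the other mesenchyme for the 14 highest and 14 lowest genes in cells with an Xist and no Y-linked UMI (horizontal) and in cells with a Y-linked and no Xist UMI (vertical); points are genes, bars 95% counting intervals and the line marks equal ratios. All 28 genes, which were ranked over all cells with both sets included, keep their direction in both sets, and Barx1 lies furthest above the line among the low genes.

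Over 13414 genes, cluster 2 (r = 0.960) and cluster 12 (r = 0.959) were the most like cluster 0 among the 9 clusters, and cluster 4 the least (r = 0.926). These correlations are across genes, which are not replicates, and the clusters share 1 library. Against cluster 2, 1051 of 11073 genes were higher in cluster 0 (9.49%) and 838 lower (7.57%). The highest ratios by the same rule were those of Sfrp4 (64.4 CPM, with 1 UMI in cluster 2, ratio 268, 47.7 to 10612), Ebf2 (50.3 against 1.92 CPM), Aspn (56.1 against 3.13 CPM), Rgcc (231 against 13.7 CPM) and Postn (397 against 38.5 CPM). The lowest were those of Sp5 (0.895 against 68.1 CPM), Stmn2 (11.9 against 633 CPM), Cdkn1a (1.57 against 54.1 CPM), Irx2 (2.24 against 60.4 CPM) and Irx1 (4.25 against 111 CPM). Of the 14 highest genes 13 were higher than in cluster 2 as well, the exception being Hpgd at 1.11-fold (0.992 to 1.24). Of 11 distal jaw regulators 9 were higher and none lower, and of 14 imprinted growth genes 13 were higher and none lower, with median log2 ratios of 1.76 and 1.22 against 0.03 over all genes. Cluster 2 had the lowest imprinted sum of the other clusters (4452 CPM). Cluster 0, at 10512 CPM, was below their median of 12287 CPM. Against their sum none of 15 imprinted genes was higher and 6 were lower. Of 10 oral and dental regulators 6 were higher than in cluster 2 and 2 lower (median 1.31), unlike against the sum of the other clusters. All 23 genes of G2 and mitosis were lower than in cluster 2.

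Against cluster 12, 574 of 10511 genes were higher (5.46%) and 738 lower (7.02%). Alx1 (191 against 4.59 CPM, 41.7-fold, 21 to 96.8), the enkephalin precursor Penk (138 against 14.9 CPM), Hand2 (136 against 15.5 CPM) and Ogn (160 against 18.3 CPM) were among the highest ratios. Of 10 distal jaw regulators 8 were higher and 1 lower (median log2 ratio 2.25, against −0.04 over all genes). Phactr1 (2.68 against 76.2 CPM), the neurotrophin receptor Ntrk2 (5.59 against 132 CPM), Hs3st6 (2.68 against 59.0 CPM), Col13a1 (4.25 against 68.2 CPM) and Sfrp1 (13.9 against 210 CPM) had the lowest ratios. Of 13 oral and dental regulators 8 were lower and 1 higher (median −1.40). Of 13 adhesive glycoproteins 10 were higher and none lower (median 1.37). Of the 23 genes of G2 and mitosis 1 was lower, and cluster 12 held 86.0% G1 cells.

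None of the 11 E11.5 mesenchymal clusters had a correlation with cluster 0 as high as those of the 9 other E13.5 clusters. Over 13308 genes the correlations with the 11 E11.5 mesenchymal clusters ran from 0.880 (cluster 16) to 0.919 (cluster 6). The 14 highest genes had their E11.5 peaks in 7 different clusters, at most 3 genes in any of them. Some peaks were low and rested on few UMIs, at 2.18 CPM for Gdf10, 3.94 CPM for Tagln and 4.86 CPM for Fam69c. Compared with the summed E11.5 mesenchyme of 5899 cells, over genes listed at both stages, 2998 of 12982 genes were higher in cluster 0 (23.1%) and 2351 lower (18.1%); the median log2 ratio was 0.04. Stage, library and protease concentration cannot be told apart in these values.

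Gdf10 had the largest ratio, with 150 CPM in cluster 0 against 0.509 CPM at E11.5 (294-fold, 187 to 491). Sfrp4 followed at 64.4 against 0.268 CPM, then Lmcd1 (69.4 against 1.50 CPM), Anxa1, annexin A1 (68.2 against 1.77 CPM) and Fam69c (58.2 against 1.72 CPM). Ebf1 was 26.3-fold higher (24.9 to 27.7) and Osr1 10.1-fold (9.75 to 10.5), and in all 13 of the 14 highest genes were called higher. Msx1 was the exception, at 671 against 629 CPM (1.07-fold, 1.03 to 1.11), and E11.5 cluster 1 reached 1390 CPM. The lowest ratios were those of Pbld2 (3 UMIs, ratio 0.0124, 0.00255 to 0.0362), Dlx2 (3 UMIs, ratio 0.0130, 0.00268 to 0.0381), Frzb (2.24 against 83.3 CPM), Cited1 (8.95 against 230 CPM) and Hist1h2ap (9.84 against 236 CPM).

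By lists, all 12 collagens were higher in cluster 0 than in the E11.5 mesenchyme (median log2 2.3), as were 9 of 11 proteoglycans with 1 lower (3.00) and 10 of 14 elastic fibre genes with none lower (1.67). Against the other E13.5 mesenchyme the collagen, proteoglycan and elastic fibre medians were 0.04, 0.13 and 0.12, so those gains were not particular to cluster 0. All 20 S phase genes and all 23 genes of G2 and mitosis were lower (medians −1.83 and −2.16). By the authors' phase calls 68.3% of the E11.5 mesenchyme was in S or G2M, against 14.1% of cluster 0. Of 10 regulators of early embryonic growth 8 were lower and none higher (−2.01). Of 16 proximal and pan-arch regulators 12 were lower and 3 higher (−1.95). The oral and dental list held 10 of 14 lower and 1 higher (−1.48). The tongue and oropharyngeal list held 9 of 12 lower and 2 higher (−1.55), and the distal list 7 of 14 lower and 2 higher (−0.42). The dermal and fibroblast list held 5 of 12 higher and 1 lower (0.42).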

How the data were processed

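Single-cell UMI counts per gene and cell were taken as deposited, together with the authors' cluster, lineage name and phase call for each cell. The deposited metadata also give the mitochondrial share as a fraction and cell cycle scores of the authors. Cell Ranger 2.0.0, Seurat 2.3.4 and mm10 are named in the submitters' processing notes without a role, and cell filters and doublet removal are not stated there. UMIs were summed over each cluster and scaled to CPM, each gene's share of the sum times 1000000. Ratios carry exact conditional binomial 95% intervals and shares exact Clopper-Pearson intervals, which cover counting error only. A gene entered with at least 20 UMIs over both groups.

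Genes named are the 14 highest and 14 lowest ratios among genes with at least 50 UMIs, at least 50 CPM on the higher side and an interval wholly beyond 1.5-fold, leaving out predicted genes, sex-linked markers and genes of haemoglobin, mitochondria and ribosomal proteins. The 10 genes highest over the next cluster, the 2 members at each end of every list, the 10 most variable genes and the 5 highest and 5 lowest of each further comparison were added. The cluster and the 43 lists were chosen with earlier results of these data known. A few genes that these rules would name are not reported here. The E11.5 comparison used 11 mesenchymal clusters and left out cluster 17 of 26 cells. Cells were thinned to 2000 UMIs for shares. No doublet caller was run; cells with 3 or more UMIs of other types were left out as an alternative. The ratio and its interval were run on simulated sums with known ratios and counting error alone. That is the error the interval assumes, so the simulation says nothing of variation between cells or libraries. Positions are from GENCODE M21 on GRCm38. Sums used pandas 2.3.3 and numpy 2.4.6, intervals scipy 1.17.1 and figures matplotlib 3.10.9, under Python 3.11.15.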

Additional observations from a re-analysis of the deposited data

How the results depend on the processing

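With 1 library per stage no replicate could be left out, and counting intervals are the only error. No paired analysis was possible because each stage has a single library. In cells with a Y-linked and no Xist UMI, an alternative added after seeing the data, 1065 genes were called lower, with fewer cells in both groups. Cluster 0 made up 10.4% of the library among cells with at least 2000 UMIs and under 8% mitochondrial transcripts. It made up 14.5% of the 3424 cells left when those with 3 or more UMIs of other cell types were taken out. That filter also removes the other cell types themselves, so a higher share of a mesenchymal cluster follows from it. The distal jaw median log2 ratio turned positive with at least 100 UMIs required (0.16), against the median of the 9 clusters (1.08), in cells with an Xist UMI (0.21) and without cluster 5 (0.49). The osteogenesis median turned to 0.41 against the median of the clusters and to 0.20 without cluster 5, and the tendon median to 0.25 against the median of the clusters. Against that median the ratio of Ibsp was 1.57 and that of Stmn2 1.06, and without cluster 5 that of Ibsp was 1.50. In G1 cells the ratio of Hist1h2ap was 1.04 and that of Hist1h1b 1.06. Over all alternatives 387 of 465 gene ratios stayed within their interval, 73 moved beyond it and 5 reversed. The 387 include 31 ratios with no minimum beyond 1 UMI and 31 with at least 100 UMIs required. Those settings change which genes enter and cannot move a gene ratio, so the share that stayed is no measure of stability. Of 640 list medians 565 stayed, 68 moved and 7 reversed. With a size factor in place of the total, 1065 genes were higher and 1477 lower.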

Other observations

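Of 16 glycolysis and hypoxia genes 2 were called higher and 2 lower in cluster 0 than in the other E13.5 mesenchyme (median log2 ratio −0.09). Over all genes 7.02% were called higher and 12% lower. Egln3, a prolyl hydroxylase induced by low oxygen, was at 13.2 against 3.30 CPM, and the lactate dehydrogenase gene Ldha was 1.98-fold lower. Of 13 dissociation and immediate early genes 1 was higher and 8 lower (median −0.84), with Junb at 3 UMIs. Of 15 imprinted growth genes none was higher and 6 were lower (median −0.42), and Phlda2 was 8.17-fold lower. Of 7 early embryonic growth regulators 3 were lower, among them Hmga2 (2.72-fold) and Myc (3.52-fold).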
